A study of Mus musculus with 15 samples.

Results

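The D cyclins, the E cyclins and the inhibitors of cyclin-dependent kinases that set the pace of the G1 phase were followed as 10 named genes among the 27019 gene symbols of the deposited count table. The genes are Ccnd1, Ccnd2, Ccnd3, Ccne1, Ccne2, Cdkn1a, Cdkn1b, Cdkn2c, Cdkn2d and Cdkn3, taken by symbol from a list. All 10 were in the table, and all 10 passed the filter on low counts that left 16057 genes for testing. The libraries were made from CD8+ T cells of the spleen of OT-I mice on the C57BL/6 strain, 8 to 10 weeks old, either wild type (WT) or Susd2-/-. Mice of both genotypes carried the OT-I transgenic T cell receptor, which recognises the ovalbumin peptide OVA257-264. At day 0 the cells had no treatment, and at day 3 the splenocytes had been kept with OVA257-264 for 3 days. CD8+ T cells were enriched by a kit that leaves them untouched, so RNA of other spleen cells can be present. There were 8 libraries, 2 in each of the 4 groups, and the labels do not say that they came from separate mice. A p-value of the joint fit reads the spread between libraries of a group, taken over the 4 groups together. A test at day 0 thus also draws on the spread of day 3, and the spread may be technical only.

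In a resting T cell the retinoblastoma family of pocket proteins keeps E2F transcription factors silent. D cyclins bind CDK4 and CDK6 after receptor and growth factor signals and begin to phosphorylate the pocket proteins, and E cyclins, themselves products of E2F-driven genes, then complete the step with CDK2 and open S phase. The CIP/KIP inhibitors p21 (Cdkn1a) and p27 (Cdkn1b) bind cyclin-CDK complexes, the INK4 inhibitors p18 (Cdkn2c) and p19 (Cdkn2d) bind CDK4 and CDK6, and Cdkn3 encodes a phosphatase that removes an activating phosphate from CDK2 and CDK1. In T cells p27 is known as a CDK inhibitor that helps to keep resting cells out of the cycle, and cyclin D2 and D3 are the D cyclins of lymphocytes.

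Here 5 promoter windows are printed because the genes behind them differed between genotypes at day 0 (Ccne1, Cdkn1a and Cdkn2d) or held a match to a cell cycle element (Cdkn3). They come from RefSeq on GRCm38.p6 and run 5′ to 3′ on the gene's strand, from 250 bases before an annotated start to the first 50 bases of the transcript. Of the 10 genes 7 were in the promoter table, with 10 windows, and Ccnd1, Ccnd2 and Ccne2 were not. Capitals mark motif matches on either strand, and in Cdkn1a's first window they mark the spaced pair described below.
Cdkn1a upstream start, chr17:29090729-29091028, plus strand: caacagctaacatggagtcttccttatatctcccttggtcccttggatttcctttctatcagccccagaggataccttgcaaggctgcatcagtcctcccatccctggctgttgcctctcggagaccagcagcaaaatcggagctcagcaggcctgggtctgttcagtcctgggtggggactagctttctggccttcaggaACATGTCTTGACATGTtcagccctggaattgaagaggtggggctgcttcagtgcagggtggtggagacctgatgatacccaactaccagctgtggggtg
Cdkn1a downstream start, chr17:29093519-29093818, plus strand: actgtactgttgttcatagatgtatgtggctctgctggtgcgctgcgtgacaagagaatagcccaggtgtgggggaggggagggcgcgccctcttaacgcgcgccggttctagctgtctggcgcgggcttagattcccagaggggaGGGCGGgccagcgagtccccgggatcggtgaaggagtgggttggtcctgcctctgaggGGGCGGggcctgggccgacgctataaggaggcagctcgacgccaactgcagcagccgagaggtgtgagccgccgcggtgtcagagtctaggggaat
Ccne1, chr7:38107441-38107740, minus strand: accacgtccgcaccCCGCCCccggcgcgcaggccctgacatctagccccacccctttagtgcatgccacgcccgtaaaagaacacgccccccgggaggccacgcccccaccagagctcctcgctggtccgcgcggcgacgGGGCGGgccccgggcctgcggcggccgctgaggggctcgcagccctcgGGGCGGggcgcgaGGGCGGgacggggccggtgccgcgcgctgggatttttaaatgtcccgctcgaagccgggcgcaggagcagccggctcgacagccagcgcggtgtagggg
Cdkn2d, chr9:21291160-21291459, minus strand: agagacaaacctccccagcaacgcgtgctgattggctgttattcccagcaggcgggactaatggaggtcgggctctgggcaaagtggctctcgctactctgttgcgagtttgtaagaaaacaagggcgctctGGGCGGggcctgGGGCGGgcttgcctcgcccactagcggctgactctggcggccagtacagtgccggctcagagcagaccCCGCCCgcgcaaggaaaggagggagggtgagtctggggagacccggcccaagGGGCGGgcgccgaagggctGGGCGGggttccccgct
Cdkn3, chr14:46760291-46760590, plus strand: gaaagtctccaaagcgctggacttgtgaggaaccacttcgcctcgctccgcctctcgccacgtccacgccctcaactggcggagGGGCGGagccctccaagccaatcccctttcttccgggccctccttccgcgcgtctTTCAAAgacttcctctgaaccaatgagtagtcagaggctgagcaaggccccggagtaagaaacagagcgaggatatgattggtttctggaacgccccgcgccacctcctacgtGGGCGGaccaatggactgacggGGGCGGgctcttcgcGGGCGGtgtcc

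The first window of Cdkn1a held ACATGT, then any 4 bases, then ACATGT again, which reads the same on both strands and is the core of 2 adjoining half-sites of the p53 response element, beginning at position 202 of the window. Only 4 of 32851 windows of this length held it (0.0122%), and this motif was chosen after the sequence had been seen. The annotated start of that window lies 2790 bases before the downstream one. The E2F motif, searched as TTTCCCGC, TTTCGCGC, TTTGCCGC or TTTGGCGC on both strands, was in 2.26% of all windows and in none of the 10. The CHR motif of genes that peak late in the cycle, searched as TTTGAA or TTCGAA on both strands, was in 19.2% of all windows and in 1 of the 10, that of Cdkn3, where the reverse complement TTCAAA begins at position 140. The GC box GGGCGG, added after the E2F search, was in 35.7% of all windows and in 8 of the 10, including 4 copies each in the Ccne1 and Cdkn3 windows and 5 in the Cdkn2d window printed above. Some matches of the GC box lie close together but none overlaps a match of another motif. These are matches of letters in a short window.

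Library totals ran from 26829807 to 53846911 counts, and levels below are CPM (counts scaled to a common total) on library sizes adjusted by edgeR's trimmed mean of M values (TMM). As a check of the labels, Susd2 itself had 90 and 80 counts in WT against 1 and 3 in Susd2-/- libraries of day 0, and 16 and 10 against 0 and 2 at day 3. The 10 CD8 T cell markers, Cd8a and Cd3e among them, were all detected in every group, with summed levels of 5539 to 6435 CPM at day 0 and 3550 to 3746 CPM at day 3. The coefficient of variation between libraries of a group beyond counting noise, from edgeR's common dispersion, was 5.38% at day 0 and 10.1% at day 3. Genes of low count vary more than this. Mki67, a marker of cycling cells, was at 67.3 ± 0.657 CPM in WT and 143 ± 12.1 CPM in Susd2-/- cells at day 0, and at 1037 ± 43.8 and 1012 ± 56.4 CPM at day 3 (SD, n = 2). Pcna, checked with it, was not higher in Susd2-/- cells at day 0, at 236 ± 4.10 CPM in WT and 217 ± 4.80 CPM in Susd2-/- cells. At day 3 Pcna was at 869 ± 3.37 and 898 ± 44.3 CPM.

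Between day 0 and day 3 all 10 genes changed in both genotypes, 7 upwards and 3 downwards, in edgeR's quasi-likelihood test at an adjusted p below 0.05. The E cyclins rose most among the cyclins, and Ccnd2 and Ccnd3 rose less. Ccnd1, already low at day 0 (0.939 CPM in WT and 1.08 CPM in Susd2-/- cells), fell to near 0. Among the inhibitors Cdkn1b, the p27 gene, fell to 0.0794 of its day 0 level in WT cells, Cdkn2d fell moderately, and Cdkn1a, Cdkn2c and Cdkn3 rose. Over the genome 36.2% of tested genes were higher and 39.0% lower at day 3 in WT cells, and 36.7% and 39.7% in Susd2-/- cells, so a call by itself is common in this contrast. The median log2 fold change of the 10 genes was 1.32 in WT and 1.14 in Susd2-/- cells, against -0.14 and -0.12 over all tested genes. RNA levels in such bulk libraries cannot tell more RNA per cell from more cells of one kind.

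**Figure D1:**
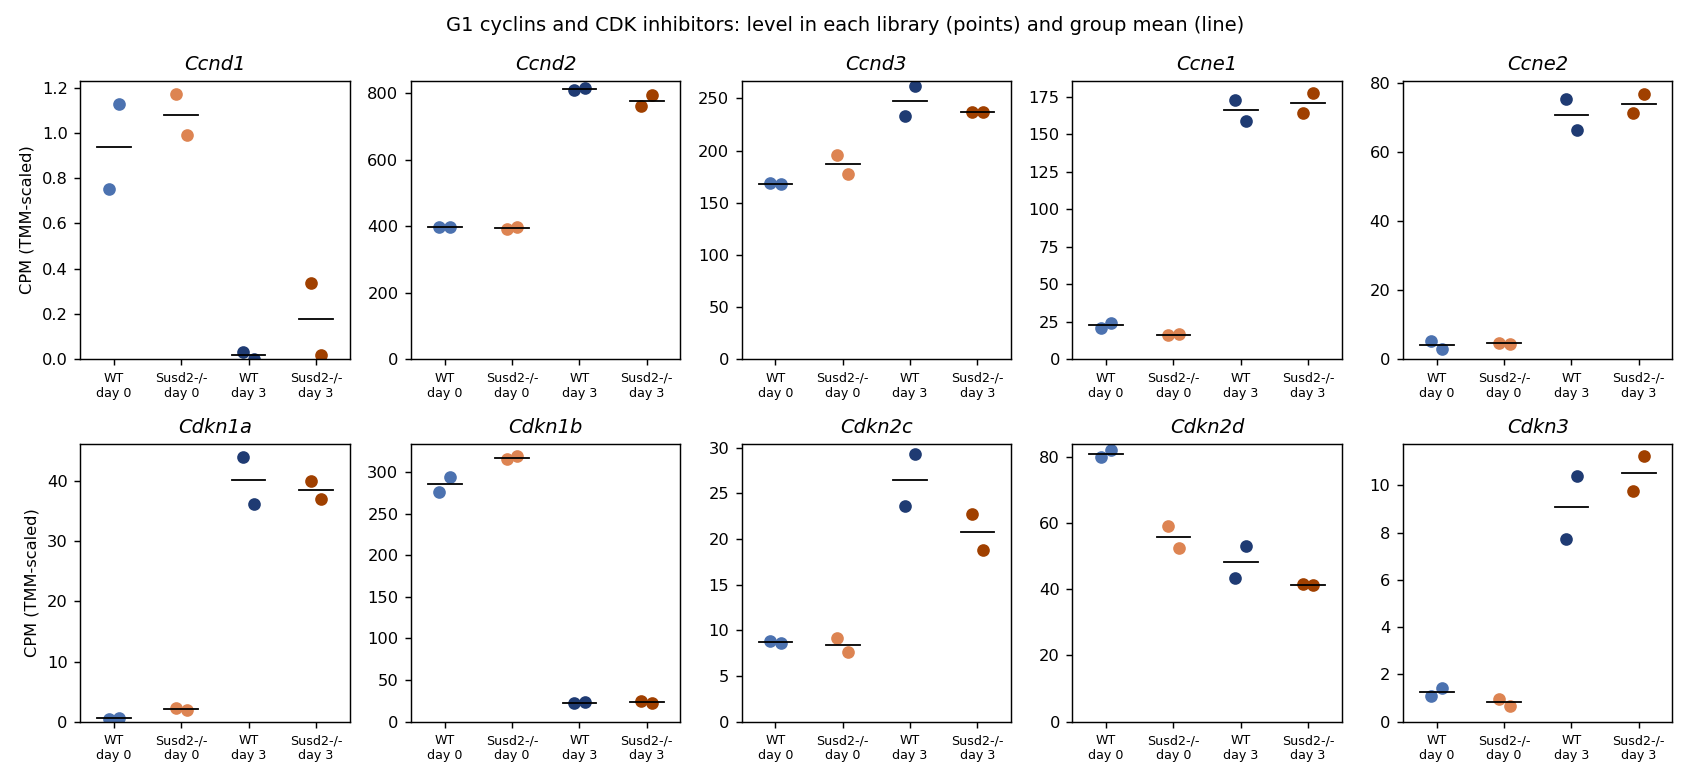
Level of each of the 10 genes in every library, in CPM on TMM-scaled library sizes, with 1 panel a gene and an axis from 0; points are libraries and lines are means of 2 libraries. The day 3 points of Cdkn1b lie between 22.2 and 24.6 CPM, under all 4 day 0 points (277 to 319 CPM), while those of Ccne1 lie between 159 and 177 CPM, above all 4 day 0 points (16.0 to 24.1 CPM).

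Ccnd2, the gene of cyclin D2 (chromosome 6, 127125162 to 127152193, minus strand; positions here are on GRCm38, from GENCODE M21), stood at 397.44 and 397.55 CPM in WT libraries of day 0 and at 391.9 and 397.5 CPM in Susd2-/- ones. At day 3 it was at 808 and 815 CPM in WT and 760 and 794 CPM in Susd2-/- libraries. All day 3 libraries lay above all day 0 libraries, a rise of 1.03 ± 0.0572 log2 units in WT (SE, adjusted p = 3.7e-12) and 0.98 ± 0.0571 in Susd2-/- cells (adjusted p = 7.85e-12). Ccnd3, the gene of cyclin D3 (chromosome 17, 47505051 to 47599691, plus strand), went from 169 and 168 CPM to 233 and 262 CPM in WT libraries, and from 196 and 178 CPM to 237.1 and 237.0 CPM in Susd2-/- libraries. It rose by 0.56 ± 0.0686 in WT (adjusted p = 5.25e-07) and by 0.34 ± 0.0683 in Susd2-/- cells (adjusted p = 0.000163), and the groups of the days did not overlap. Scaling by library totals in place of TMM, which moves the median of all genes by -0.18 in WT and -0.20 in Susd2-/- cells, left Ccnd3 at 0.14 in Susd2-/- cells and ended that call (adjusted p = 0.0606). Exons of Ccnd3 share 361 bases with Bysl on the other strand, which itself went from 32.5 to 145 CPM in WT cells, and how the counting treated strand is not given in the sources used here. The antisense gene 9330179D12Rik, which shares 368 exonic bases with Ccnd2, had 4 to 35 counts in a library.

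Ccnd1, the gene of cyclin D1 (chromosome 7, 144929931 to 144939925, minus strand), had 24 and 33 counts in WT and 37 and 29 in Susd2-/- libraries of day 0. Its day 3 counts were 1 and 0 in WT and 10 and 1 in Susd2-/- libraries. By summed counts over scaled library sizes the day 3 level was 1.82% of the day 0 level in WT cells (exact 95% interval 0.0452% to 10.5%) and 12.6% in Susd2-/- cells (6.00% to 24.0%). These intervals allow for counting error only and are too narrow even for that, as described under the processing. The fall passed edgeR's test in WT (adjusted p = 0.000451) and in Susd2-/- cells (adjusted p = 0.00566). Without Susd2-/- library 2 of day 3 the second call was lost (adjusted p = 0.0658), the library left having the 10 counts. Exons of Ccnd1 share 1100 bases, 23.4% of its exonic length, with LTO1 on the other strand, which was at 23.9 CPM in WT cells at day 0 and 11.5 CPM at day 3. The summed level of 13 macrophage and monocyte markers was 83.7 to 84.9 CPM at day 0 and 8.98 to 10.9 CPM at day 3 in WT libraries. In Susd2-/- libraries it was 169 to 177 CPM and 6.74 to 9.94 CPM. The part of other spleen cells in the Ccnd1 counts was not tested.

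Ccne1, the gene of cyclin E1 (chromosome 7, 38097984 to 38107534, minus strand), was at 20.7 and 24.1 CPM in WT and 16.0 and 16.5 CPM in Susd2-/- libraries at day 0, and at 173 and 159 CPM in WT and 164 and 177 CPM in Susd2-/- libraries at day 3. It rose 7.41-fold in WT (2.89 ± 0.0846 log2 units, adjusted p = 2.26e-16) and 10.5-fold in Susd2-/- cells (3.39 ± 0.0873, adjusted p = 3.88e-17). Ccne2, the gene of cyclin E2 (chromosome 4, 11191351 to 11204779, plus strand), started lower, at 5.09 and 2.80 CPM in WT and 4.72 and 4.44 CPM in Susd2-/- libraries, and reached 75.5 and 66.3 CPM and 71.2 and 76.9 CPM. Its rise was 17.8-fold in WT (4.15 ± 0.189, adjusted p = 3.1e-09) and 16.2-fold in Susd2-/- cells (4.01 ± 0.185, adjusted p = 3.38e-09). The day 3 libraries of both E cyclins lay far above every day 0 library. Ccne2 shares 609 exonic bases (17.4%) with Ints8 on the other strand, a gene that went from 50.8 to 82.6 CPM in WT cells.

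Cdkn1b, the p27 gene (chromosome 6, 134920401 to 134925513, plus strand), was the inhibitor of highest count at day 0, at 277 and 294 CPM in WT and 315 and 319 CPM in Susd2-/- libraries. At day 3 it was at 22.2 and 23.1 CPM and at 24.6 and 22.9 CPM. The fall by 3.65 ± 0.0729 log2 units in WT cells (adjusted p = 1.17e-18) and by 3.74 ± 0.0722 in Susd2-/- cells (adjusted p = 9.46e-19) left 0.0794 and 0.0747 of the day 0 level, with no overlap between the days. Cdkn2d, the p19 gene of the INK4 family (chromosome 9, 21288410 to 21291407, minus strand), was at 79.8 and 81.9 CPM in WT and 59.1 and 52.4 CPM in Susd2-/- libraries at day 0, and at 43.3 and 53.1 CPM and 41.7 and 41.2 CPM at day 3. It fell by 0.75 ± 0.0913 in WT (adjusted p = 5.42e-07) and by 0.43 ± 0.0917 in Susd2-/- cells (adjusted p = 0.000352). WT library 2 of day 3 lay just above the lower Susd2-/- library of day 0, but within each genotype the days did not overlap.

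Cdkn1a, the p21 gene (chromosome 17, 29090976 to 29100727, plus strand), had the largest rise of the 10 genes. At day 0 its 17 counts in either WT library made 0.531 and 0.581 CPM, and its 71 and 55 counts in Susd2-/- libraries made 2.25 and 1.88 CPM. At day 3 it was at 44.0 and 36.2 CPM in WT and 40.0 and 37.1 CPM in Susd2-/- libraries. The rise was 71.9-fold in WT (6.17 ± 0.192 log2 units, adjusted p = 5.51e-16) and 18.6-fold in Susd2-/- cells (4.22 ± 0.157, adjusted p = 7.7e-15). Transcripts from the upstream start, whose window held the spaced pair, were not counted apart from the others, since the table has 1 value a gene. Exons of Cdkn1a share 273 bases, 7.68% of its exonic length, with AC167363.2 on the other strand, which has no row in the count table.

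Cdkn2c, the p18 gene of the INK4 family (chromosome 4, 109660876 to 109667189, minus strand), went from 8.81 and 8.61 CPM to 23.6 and 29.3 CPM in WT libraries and from 9.21 and 7.59 CPM to 22.8 and 18.7 CPM in Susd2-/- libraries. It rose 3.04-fold in WT (1.60 ± 0.153, adjusted p = 1.35e-08) and 2.46-fold in Susd2-/- cells (1.30 ± 0.153, adjusted p = 2.61e-07), so the INK4 genes Cdkn2c and Cdkn2d moved in opposite directions. Cdkn3, the phosphatase gene (chromosome 14, 46760541 to 46771669, plus strand), went from 1.09 and 1.43 CPM to 7.72 and 10.4 CPM in WT libraries and from 0.981 and 0.649 CPM to 9.77 and 11.2 CPM in Susd2-/- libraries. It rose 7.17-fold (2.84 ± 0.258, adjusted p = 6.89e-09) and 12.8-fold (3.68 ± 0.272, adjusted p = 3e-10). For both genes every day 3 library lay above every day 0 library.

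**Figure D2:**
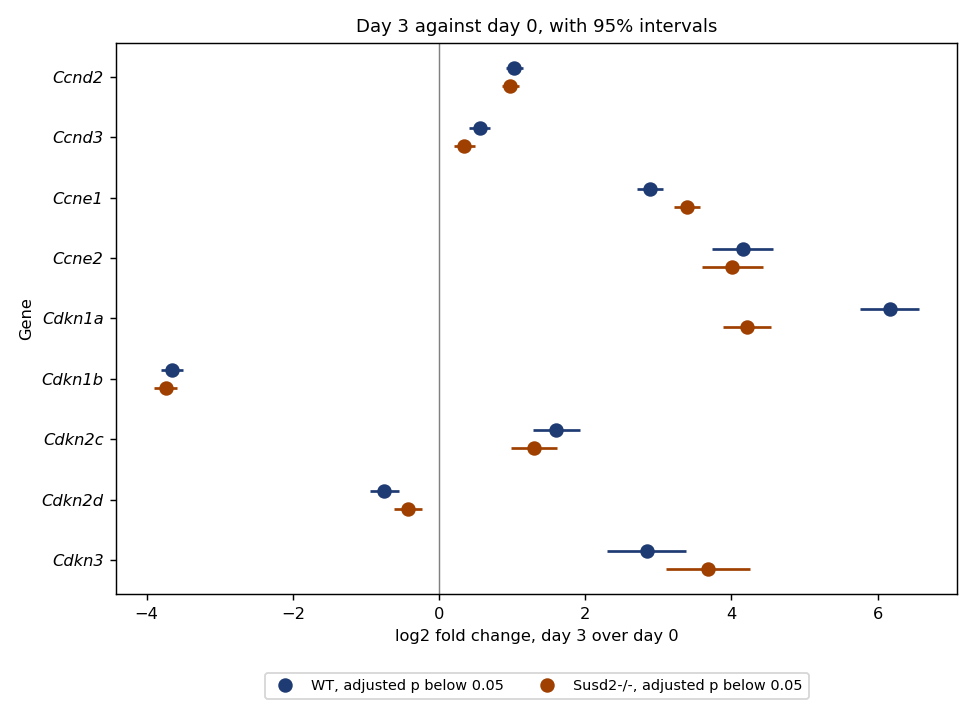
Log2 fold change of day 3 over day 0 (horizontal axis) for 9 genes in WT and in Susd2-/- cells, with lines for 95% intervals; Ccnd1 is left out because its counts at day 3 were 0 to 10. Ccnd2, Ccnd3, Ccne1, Ccne2, Cdkn1a, Cdkn2c and Cdkn3 lie right of 0, Cdkn1b and Cdkn2d left of it, and the genotypes are farthest apart for Cdkn1a (6.17 and 4.22).

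Compared per length, as CPM per kilobase of annotated exons, the order of the 10 genes was rebuilt between the days. In WT cells at day 0 Cdkn1b was first at 62.7 ± 2.78 (SD, n = 2), then Cdkn2d at 51.4 ± 0.944, Ccnd2 at 42.2 ± 0.00827, Ccnd3 at 19.2 ± 0.112, Ccne1 at 8.42 ± 0.885, Cdkn2c at 3.24 ± 0.0538, Ccne2 at 1.13 ± 0.464 and Cdkn3 at 0.533 ± 0.102. Ccnd1 at 0.199 ± 0.0566 and Cdkn1a at 0.156 ± 0.00984 came last and did not differ beyond their spread. In WT cells at day 3 Ccnd2 was first at 86.3 ± 0.505 and Ccne1 second at 62.3 ± 3.62. Cdkn2d at 30.6 ± 4.42 and Ccnd3 at 28.2 ± 2.32 did not differ beyond their spread, nor did Cdkn1a at 11.3 ± 1.55 and Cdkn2c at 9.86 ± 1.51, which followed Ccne2 at 20.3 ± 1.87. Cdkn1b at 4.98 ± 0.138, Cdkn3 at 3.82 ± 0.801 and Ccnd1 at 0.00343 ± 0.00485 came last.

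The order in Susd2-/- cells was the same but for 3 places. Cdkn2d at 35.4 ± 2.97 lay under Ccnd2 at 42.0 ± 0.422 at day 0, Cdkn1a at 0.581 ± 0.073 lay above Cdkn3 at 0.344 ± 0.0989 and Ccnd1 at 0.23 ± 0.027, the last pair not differing beyond their spread, and Ccnd3 at 27.0 ± 0.00725 lay above Cdkn2d at 26.3 ± 0.225 at day 3. With the longest transcript as the length, Ccnd2 (62.8) and Cdkn1b (62.7) stood level in WT cells at day 0, above Cdkn2d (56.8), so that Cdkn2d lay under Ccnd2 in both genotypes. On that length Ccnd3 (48.4) stood above Cdkn2d (39.2) in Susd2-/- cells at day 0, and at day 3 it stood above it in WT (64.2 against 33.9) and in Susd2-/- cells (61.4 against 29.1). In WT cells at day 3 Cdkn1a (19.3 ± 2.65) and Cdkn2c (10.7 ± 1.64) differed beyond their spread on that length. The places of Cdkn2d, Ccnd2 and Ccnd3, and how they differ between genotypes, thus depend on the length used, as does the tie of Cdkn1a and Cdkn2c. Cdkn1a stayed above Cdkn3 and Ccnd1 in Susd2-/- cells at day 0 on both lengths.

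Shares of each family, on the same scale per exon length, show which gene carried the family's RNA. Ccnd2 made up 68.6% of D cyclin RNA in WT and 66.1% in Susd2-/- cells at day 0, and 75.4% and 75.3% at day 3, Ccnd3 making up nearly all the rest. Ccne1 made up 88.1% and 82.3% of E cyclin RNA at day 0 and 75.5% and 75.2% at day 3. Of the 4 inhibitors other than Cdkn3, Cdkn1b held 53.4% and 64.1% at day 0 and 8.79% and 10.4% at day 3. Cdkn1a went from 0.133% and 0.533% to 20.1% and 21.7%, Cdkn2c from 2.76% and 2.87% to 17.3% and 15.4%, and Cdkn2d from 43.7% and 32.5% to 53.8% and 52.5%. The sizes depend on the length: on the longest transcript Cdkn1a went from 0.217% and 0.875% to 28.2% and 30.3%, Cdkn1b from 50.8% and 61.6% to 7.24% and 8.51%, and Ccnd2 from 58.9% and 56.2% to 66.7% and 66.6%. The direction from day 0 to day 3 was the same for these 3 genes on both lengths. Cdkn2d went from 46.1% and 34.6% to 49.1% and 47.5% on the longest transcript, and there its WT libraries of the days overlapped.

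**Figure D3:**
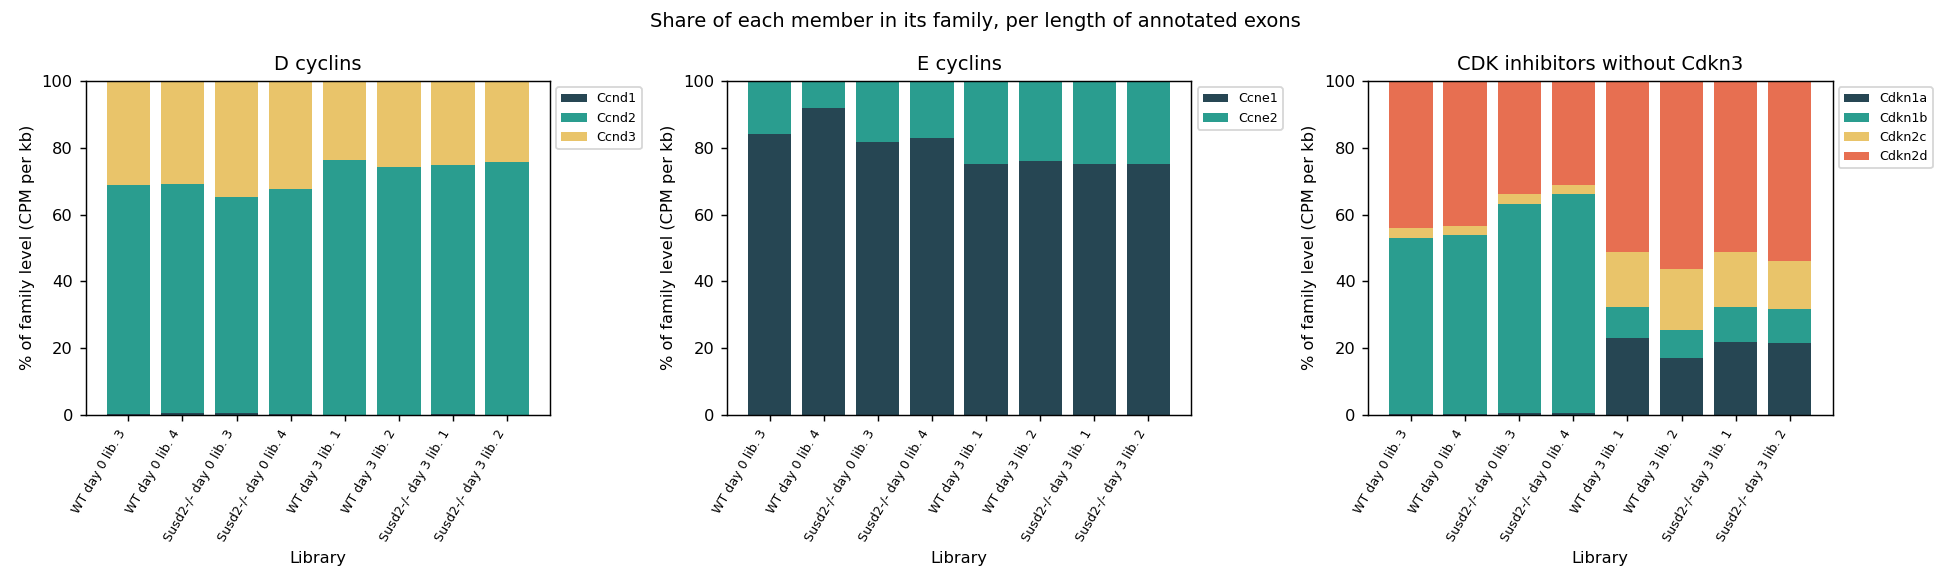
Share of each gene in the summed level (CPM per kilobase of annotated exons) of its family in each of the 8 libraries, stacked to 100%, for the D cyclins, the E cyclins and the CDK inhibitors without Cdkn3. In the inhibitor panel Cdkn1b falls from 52.9% to 65.7% in the day 0 libraries to 8.47% to 10.5% in the day 3 libraries, where Cdkn1a takes 17.0% to 23.1%.

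Before stimulation, Susd2-/- cells differed from WT cells in 3 of the 10 genes. Cdkn1a was higher, and Ccne1 and Cdkn2d were lower. Over the genome 11.5% of tested genes were higher and 12.1% lower in this contrast, and the median log2 difference was 0.07 over the 10 genes and 0.01 over all genes, so 3 calls among 10 genes lie near the background share. The question of the contrast was whether untreated CD8+ T cells without Susd2 hold other levels of these regulators.

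Cdkn1a was 3.71-fold higher in Susd2-/- cells at day 0 (1.89 ± 0.260 log2 units, adjusted p = 3.5e-05), and both Susd2-/- libraries (2.25 and 1.88 CPM) lay above both WT libraries (0.531 and 0.581 CPM). The levels are low: they are 1.39% of the WT level at day 3 in WT cells and 5.14% in Susd2-/- cells. The call held in all 17 alternative fits, with a log2 difference of 1.74 to 2.01. In the same libraries markers of macrophages and monocytes were higher too. Of 13 such markers 8 were called higher and none lower, against 11.5% and 12.1% of all tested genes. Their summed level was 83.7 to 84.9 CPM in WT and 169 to 177 CPM in Susd2-/- libraries. Vcam1 was at 11.5 ± 0.998 against 32.5 ± 0.506 CPM, Csf1r at 9.66 ± 0.1 against 23.0 ± 0.42 CPM and C1qa at 3.76 ± 0.433 against 10.5 ± 0.102 CPM. Their part in the difference of Cdkn1a, and that of the cycling marker Mki67, was not tested. At day 3, where Cdkn1a stood at 36.2 to 44.0 CPM, the summed level of the 13 markers was 6.74 to 10.9 CPM, and Vcam1 and C1qa had 0 counts.

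Ccne1 was lower by 0.46 ± 0.0899 log2 units in Susd2-/- cells at day 0 (adjusted p = 0.00105), with 16.0 and 16.5 CPM against 20.7 and 24.1 CPM in WT. Cdkn2d was lower by 0.54 ± 0.0906 (adjusted p = 0.000305), with 59.1 and 52.4 CPM against 79.8 and 81.9 CPM. The genotypes overlapped in neither gene, but nor did they in Ccnd3, Cdkn1b and Cdkn3, which were not called. With 2 libraries a group a lack of overlap is weak support. When the day 0 libraries of each genotype were summed and counted as 1, which takes the spread from day 3, the calls of Ccne1 (adjusted p = 0.056) and Cdkn2d (adjusted p = 0.0652) were lost and that of Cdkn1a held. In the same libraries 5 of 10 CD8 T cell markers were called lower and 1 higher (Zap70, adjusted p = 0.0494). The other 4 were not called, Cd8a and Cd3e among them. Over all tested genes 12.1% were lower and 11.5% higher, shares that also apply to the marker lists that follow. Markers of other cells also differed: of 3 plasma cell markers 2 were called lower and 1 higher (summed level 33.9 to 35.8 CPM in WT and 7.14 to 8.54 CPM in Susd2-/- libraries), with Igha at 24.7 against 4.46 CPM and Jchain at 9.84 against 2.08 CPM. Of 4 NK cell markers 1 was called lower, Klra4 at 2.28 against 0.716 CPM (summed level 15.4 to 16.9 against 10.3 to 10.4 CPM). The part of these markers in the differences of Ccne1 and Cdkn2d was not tested.

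The other 7 genes did not pass at day 0. Cdkn1b was at 285 ± 12.7 CPM in WT and 317 ± 2.86 CPM in Susd2-/- cells (0.15, 95% interval 0.02 to 0.28, adjusted p = 0.0908), and Ccnd3 at 168 ± 0.983 and 187 ± 13.1 CPM (0.15, interval 0.01 to 0.29, adjusted p = 0.126). Cdkn1b passed in DESeq2 (adjusted p = 0.045), in limma voom (0.0437 adjusted) and in 3 other edgeR settings, so its call depends on the setting. For Ccnd2 the interval of the difference was -0.13 to 0.11, for Cdkn2c -0.39 to 0.28, for Ccne2 -0.30 to 0.71 and for Cdkn3 -1.30 to 0.07. Ccnd1 at 57 summed counts in WT and 66 in Susd2-/- cells allowed -1.27 to 1.69.

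After 3 days with the peptide none of the 10 genes passed between genotypes in edgeR, against 0.0498% of all tested genes called higher and 0.0872% lower. At an unadjusted p below 0.05 there were 2, Cdkn2c and Cdkn2d, both lower in Susd2-/- cells, and 0 passed in DESeq2 and in limma voom. Cdkn2c was at 23.6 and 29.3 CPM in WT and 22.8 and 18.7 CPM in Susd2-/- libraries (-0.35, interval -0.65 to -0.05, adjusted p = 0.532). Cdkn2d was at 43.3 and 53.1 CPM against 41.7 and 41.2 CPM (-0.22, interval -0.41 to -0.02, adjusted p = 0.573). For Cdkn1a the interval was -0.31 to 0.19, for Ccne1 -0.12 to 0.20, for Ccnd2 -0.18 to 0.06, for Ccnd3 -0.21 to 0.08 and for Cdkn1b -0.09 to 0.22. The intervals of Ccne2 (-0.26 to 0.39) and Cdkn3 (-0.23 to 0.66) were wider, and Ccnd1 gets no fold because WT libraries had 1 and 0 counts.

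**Figure D4:**
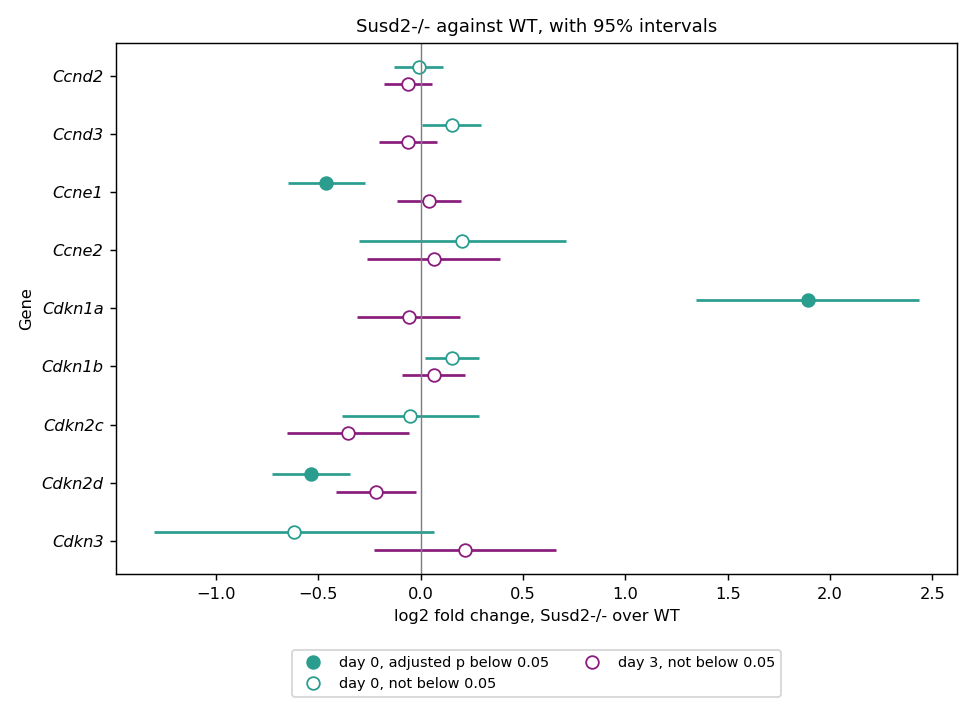
Log2 fold change of Susd2-/- over WT (horizontal axis) for 9 genes at day 0 and at day 3, with lines for 95% intervals and filled points where the adjusted p was below 0.05; Ccnd1 is left out because WT libraries of day 3 had 1 and 0 counts. Cdkn1a at day 0 lies at 1.89, Ccne1 and Cdkn2d at -0.46 and -0.54, and no day 3 point is filled.

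The rise or fall over the days differed between the genotypes for 2 of the 10 genes, tested as the interaction of genotype and day, against 13.5% of all tested genes. For Cdkn1a the day difference was smaller in Susd2-/- cells, by -1.95 ± 0.287 log2 units (adjusted p = 0.000203). For Ccne1 it was larger, by 0.50 ± 0.117 (adjusted p = 0.0078). In both genes the genotypes lay apart at day 0 and overlapped at day 3. The interaction shares the day 0 libraries with the genotype contrast, so it is no separate evidence. The Ccne1 interaction was lost without WT library 4 of day 0 (0.40, adjusted p = 0.0698) and with the day 0 libraries of each genotype counted as 1 (adjusted p = 0.107), and without WT library 2 of day 3 Cdkn2d joined (0.51, adjusted p = 0.00627).

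The kinases that the cyclins activate and the inhibitors hold back were listed as 8 genes with their activators. All 8 rose in both genotypes between the days, with a median log2 fold change of 1.27 in WT and 1.36 in Susd2-/- cells. Among all tested genes 36.2% were called higher and 39.0% lower at day 3 in WT cells, and 36.7% and 39.7% in Susd2-/- cells. The day counts of this list and of the lists below stand against these shares. Cdk4, a partner of the D cyclins, went from 102 to 410 CPM in WT cells (adjusted p = 6.76e-16), and Cdc25a, a phosphatase that activates CDK2, from 27.6 to 199 CPM (adjusted p = 2.52e-16). At day 0, 3 of the 8 were higher and 4 lower in Susd2-/- cells, where 11.5% of all tested genes were higher and 12.1% lower, the shares against which the day 0 counts of the lists below also stand. Cdk6 was higher (57.8 against 82.6 CPM, adjusted p = 1.6e-05), as were Cdc25a and Cdk2, while Cdk7, the kinase that activates CDKs, was lower (40.7 against 31.1 CPM, adjusted p = 0.00191). The partners of the D cyclins thus lay on opposite sides, but Cdk4, lower at 102 against 90.1 CPM, passed only narrowly (adjusted p = 0.0481). DESeq2 and limma voom each called 6 of the 8 genes at day 0.

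Of 18 genes of pocket proteins, E2F factors and subunits of the DREAM complex, which represses cell cycle genes in resting cells, 12 rose and 4 fell in WT cells and 13 rose and 5 fell in Susd2-/- cells between the days. Tfdp1, the dimer partner of E2F, went from 43.7 to 425 CPM in WT cells (adjusted p = 3.91e-18), while Rbl2, the pocket protein p130 of resting cells, fell from 103 to 28.4 CPM (adjusted p = 7.18e-14). At day 0, 4 of the 18 were higher and 1 lower in Susd2-/- cells. E2f1 was at 6.14 in WT and 12.2 CPM in Susd2-/- cells (adjusted p = 3.54e-05) and E2f8 at 2.63 and 5.78 CPM (adjusted p = 0.000108), while Rbl2 was lower (103 against 83.8 CPM, adjusted p = 0.00737). E2f1 and E2f8 thus lay on the other side from Ccne1 at day 0.

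Of 14 tested genes of the turnover of G1 cyclins and inhibitors 8 rose and 3 fell over the days in each genotype. Skp2, the F-box protein that targets p27, went from 6.06 to 26.3 CPM in WT cells (adjusted p = 4.55e-11), and its partner Cks1b from 6.99 to 105 CPM (adjusted p = 3.23e-17), while Cdkn1b RNA fell. Dtl, an adaptor that targets p21 in S phase, went from 3.61 to 133 CPM (adjusted p = 2.9e-18). Usp28, a deubiquitinase that opposes Fbxw7, fell from 130 to 11.2 CPM (adjusted p = 1.92e-16). Fbxw7, the F-box protein that targets cyclin E, fell from 37.9 to 24.4 CPM (adjusted p = 5.25e-06), while both E cyclin genes rose. At day 0, 3 of the 14 were higher and 1 lower in Susd2-/- cells, with Dtl at 3.61 in WT and 8.77 CPM in Susd2-/- cells (adjusted p = 1.11e-06), Cks1b and Fbxw7 higher, and Skp1a lower.

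The later cyclins and CDK1 gave a reference for cells past G1. All 6 tested genes of this list rose in both genotypes, Ccna2 from 7.74 to 311 CPM (adjusted p = 9.76e-20) and Cdk1 from 4.68 to 163 CPM (adjusted p = 1.89e-19) in WT cells. At day 0, 5 of the 6 were higher in Susd2-/- cells, among them Ccna2 (7.74 against 13.7 CPM, adjusted p = 2.4e-06), while Ccnb1 was at 6.42 and 6.65 CPM (adjusted p = 0.853). Of the E cyclins, Ccne1 was lower in the same libraries and Ccne2 did not pass.

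Of 15 tested p53 target genes, Cdkn1a not counted, 10 rose and 5 fell over the days in WT cells and 8 rose and 5 fell in Susd2-/- cells, so targets went both ways while Cdkn1a rose. Sesn2, a stress-induced regulator of growth signalling, went from 7.75 to 39.6 CPM in WT cells (adjusted p = 3.04e-12), while Btg2, an antiproliferative gene, fell from 250 to 21.3 CPM (adjusted p = 7.8e-19) and Trp53inp1 from 287 to 13.9 CPM (adjusted p = 6.65e-11). At day 0, 6 of the 15 were higher and 1 lower in Susd2-/- cells. Tnfrsf10b, a death receptor, was at 6.57 in WT and 15.6 CPM in Susd2-/- cells (adjusted p = 6.74e-06) and Gadd45a at 11.1 and 20.7 CPM (adjusted p = 0.000682), while Ccng1 was lower (126 against 89.0 CPM, adjusted p = 0.0204). At day 3, 0 genes of these 5 lists passed between genotypes in edgeR, DESeq2 or limma voom. At an unadjusted p below 0.05 in edgeR there was 1 gene in each list but that of the later cyclins, which had 0.

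The other inhibitors of the INK4 and CIP/KIP families were near 0. Cdkn1c, the p57 gene, had 0 to 19 counts in a library and an adjusted p of 0.211 or more in each contrast. Cdkn2a had 0 to 8 counts and Cdkn2b 0 to 4, too few for the filter.

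The genes of closest pattern were sought among 9868 genes by the root mean square difference of log2 CPM over the 8 libraries, each gene centred on its own mean. Ccne1 was closest to Nup37 (0.0761), Cisd1 and Txn1, and 72 genes lay within 0.25 of it. Ccne2 was closest to Cdca3 (0.190), Tyms and Cenpk, with 21 genes within 0.25. For Cdkn1a Ccr6 was closest at 0.225 and was the single gene within 0.25, followed by Mt1 and Poglut3. The difference was not scaled to the size of a gene's change. Counts within 0.25 therefore do not compare genes of large change, such as Cdkn1a, with genes of small change. Ccr6, the gene of a chemokine receptor, was at 0.307 in WT and 1.08 CPM in Susd2-/- cells at day 0 and at 26.7 and 24.7 CPM at day 3. Cdkn1b was closest to Pisd-ps1 (0.0776), Zfp652 and Btg2, with 69 genes within 0.25, and Cdkn3 to Prdx4 (0.133) and then Galk1, with 13.

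Within 0.25 of Ccnd2 lay 1824 genes, led by Clptm1 (0.025), Lrwd1 and Nob1, and within 0.25 of Ccnd3 lay 2078, led by Mul1, Camk4 and Cope. Cdkn2c was closest to Bst2 (0.0707), Mlf2 and B3galt6 and Cdkn2d to Rpl17-ps5 (0.0543), Hspb11 and Rit1, with 745 and 788 genes within 0.25. For Ccnd1 no distance is given, since its day 3 counts were 0 to 10.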

How the data were processed

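The authors deposited a table of raw counts per gene symbol, whole numbers with no normalization, in 15 columns that are each 1 sequencing lane, per the file header and its values. Libraries were poly(A)-selected, strand-marking and read as paired ends, per the labels' protocols. The submitters' processing notes list GRCm38 as the build and, in no order, Subread 2.0.1, SAMtools 1.10, HISAT2 2.1.0 and fastp 0.23.2. The strand setting, the use of multiple alignments and the annotation behind the counts are details not given in the sources used here. Genes with an antisense neighbour or near-identical copy have uncertain counts for that reason, and Ccnd3 has a processed pseudogene with 0 to 4 counts in a library.

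Lanes were summed to 8 libraries. Chi-square per degree of freedom was 3.01 to 3.17 between lanes. Between the paired libraries it was 3.37 in WT and 6.30 in Susd2-/- cells at day 0, and 12.5 and 16.0 at day 3, so WT libraries of day 0 differ little more than lanes do. In every lane genes counted 2 times outnumbered genes counted 1 time. The lowest ratio among a library's lanes was 1.69 to 1.99, so counting intervals are too narrow. A joint edgeR 4.0.16 fit in R 4.3.3 covered all groups, with TMM scaling, filterByExpr and robust quasi-likelihood F tests on 4 residual degrees of freedom. Benjamini-Hochberg adjustment ran over 16057 genes, and a call is an adjusted p below 0.05. Where neither DESeq2 1.42.0 nor limma 3.58.1 is named, an adjusted p comes from edgeR. The SE is the log2 fold change over the root of F, and 95% intervals use it with the moderated degrees of freedom. The procedure was tested on simulated counts. Gene positions and exons come from GENCODE M21 and promoters from RefSeq.

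The genes and lists were chosen with earlier results of these data known. From each list the text draws on the 3 called genes of smallest adjusted p in a comparison, or 1 where none was called. It adds the 3 closest patterns for each gene but Ccnd1, among genes averaging 1 or more on the log2 CPM scale, without predicted genes and Riken clones, and 1 of these genes is not reported here. Susd2, Mki67, Pcna and antisense neighbours were added as checks. Alternatives were DESeq2, limma voom, other scalings, no filter, 2 groups alone, 1 lane, summed day 0 libraries, the library number as a block and each library left out.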

Additional observations from a re-analysis of the deposited data

Results flagged for a closer look

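For Cdkn1a the difference between genotypes was not the same on both days: Susd2-/- lay above WT at day 0 (2.06 ± 0.259 against 0.556 ± 0.035 CPM, SD, n = 2) and the groups overlapped at day 3 (38.6 ± 2.09 against 40.1 ± 5.5 CPM), an interaction of -1.95 log2 units (edgeR adjusted p = 0.000203). It kept its call in all 16 alternative fits, between -2.07 and -1.74.

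For Ccne1 the sign was opposite: Susd2-/- lay under WT at day 0 (16.3 ± 0.33 against 22.4 ± 2.36 CPM) and overlapped with it at day 3 (171 ± 9.60 against 166 ± 9.63 CPM), an interaction of 0.50 log2 units (edgeR adjusted p = 0.0078). Its adjusted p ran from 0.000381 to 0.107 over the 16 alternatives.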

How the results depend on the processing

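Each comparison was refitted in 16 or 17 other ways. At day 0 DESeq2 and limma voom each called 4 of the 10 genes, with Cdkn1b added to those of the joint fit. Cdkn1b was also added with RLE factors and with library totals. The number of the 10 genes called at day 0 (3) became 5 in a fit of the 2 groups alone, which added Ccnd3 and Cdkn1b and called 5627 of all genes against 3792, and 1 with the day 0 libraries of each genotype summed as 1. The number called for the interaction (2) became 1 in that summed fit, and 1 to 3 with a library left out. The library number as a replicate block gave 3 at day 0, 0 at day 3, 10 for either day contrast and 2 for the interaction, so the block changed none of these counts. Over all tested genes the day 0 count was 725 in the summed fit and between 2044 and 2342 without any 1 of the day 0 libraries. The interaction count of 2164 was likewise 364 and between 1176 and 1440. The day 3 count of 22 ran from 1 to 392 over the alternatives, so the shares of called genes above belong to the joint fit. Library numbers did not pair the samples (correlation of deviations 0.005 at day 0 and -0.076 at day 3). Day contrasts kept all 10 calls in every fit but 2 in Susd2-/- cells, which are given with Ccnd3 and Ccnd1 above. Without WT library 3 of day 0, Ccne2 was called higher in Susd2-/- cells (adjusted p = 0.0146).

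Changes of sign came only in values not called in the joint fit, Ccne2 at day 0 among them. Ccnd2 at day 0 became 0.0166 in DESeq2 and with RLE factors, 0.025 with library totals and 0.0181 on lane 1, and its interaction 0.0129 with no filter. With libraries left out in turn the day 0 log2 difference ran from -0.0742 to 0.515 for Ccnd1, -0.163 to 0.695 for Ccne2 and -0.211 to 0.0838 for Cdkn2c. At day 3 it ran from -0.0984 to 0.0487 for Ccnd3, -0.018 to 0.149 for Ccne1, -0.000544 to 0.209 for Ccne2 and -0.168 to 0.133 for Cdkn1a. The interaction ran from -0.022 to 5.19 for Ccnd1, -0.0742 to 0.00368 for Ccnd2, -0.599 to 0.227 for Ccne2 and -0.138 to 0.00346 for Cdkn1b. The cause of these shifts was not tested. Depth limits Ccnd1 at day 3 and Cdkn1a in WT cells at day 0, which rest on 0 to 17 counts in a library.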
